A study of Mus musculus with 24 samples.

Results

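The 9 genes Ms4a1, Cd79a, Cd79b, Pax5, Cd22, Fcer2a, Cr2, Blk and Bank1, which are classical genes of the B cell lineage, were followed in RNA of CD45+ cells from mouse breast tumors. They were taken by symbol from the 16996 genes of the expression table, and all 9 had a value in each of the 24 samples. The tumors grew from EMT6-hHER2, a mouse breast cancer line that carries full-length human HER2 in a transposon vector with a PGK promoter and that was isolated by single-cell sorting, so the tumors of the study model a selected cell line and not a range of HER2-positive cancers. Cells were placed in the mammary fat pad of wild-type, immunocompetent female Balb/c mice aged 8 to 10 weeks, and the mice were 10 to 12 weeks old according to the sample labels. At a tumor volume of 80 mm3, mice were left untreated or were given 1 intravenous dose of trastuzumab (20 mg/kg), an antibody to HER2, T-DM1 (15 mg/kg), trastuzumab joined to a maytansine-type microtubule poison, or T-PNU (1 mg/kg), trastuzumab joined to an anthracycline derivative. Tumors were taken 10 days later, CD45+ cells were enriched with magnetic beads, and each mouse gave 1 library. Per the study's methods, T-PNU tumors were by then smaller than at treatment, while trastuzumab and T-DM1 are reported not to prevent growth. Harvest volumes are not given for each group, so tumor size at harvest and treatment cannot be told apart. The 4 groups hold 6 mice each.

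B cells arise in the bone marrow under the transcription factors Ebf1 and Pax5 and recognize antigen through a surface immunoglobulin that signals through the chains Cd79a and Cd79b. Kinases such as Blk and Syk carry that signal, while co-receptors raise it (Cr2) or restrain it (Cd22). In tumors, B cells can sit as scattered cells or in lymphoid aggregates, and in draining lymph nodes they form follicles next to T cell zones.

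The values are on a log2 scale and normalized for library size by the authors, so a difference of 1 is a doubling of the deposited value. The transformation is not named, and if it shrank values toward a gene's mean, the folds given here understate those of the reads. The values ran from 1.13 to 19.70 over all genes and samples. The reads behind each value are unknown, and no interval for counting error can be given. The heatmaps of the study label 20 of the 24 samples and leave out B1 and C1 of the untreated group, as well as E2 and B3 of the trastuzumab group (samples are named by library well). B1 stood apart in other cell types, with the lowest level of the macrophage list, -0.97, and C1 had the highest, 0.76. Results are therefore given with all 24 samples and with the 20. The column headings carry a number whose meaning is not stated, from 288 to 293 for untreated samples and from 500 on for treated ones, so whatever that number marks and treatment as such cannot be told apart. Markers of the enriched cells were present in every sample. Ptprc, the gene of CD45, lay between 14.01 and 15.52 and Csf1r, a macrophage receptor, between 13.47 and 14.92. Stromal RNA was present too, with Col1a2, a collagen chain, between 13.47 and 16.17.

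In GRCm38 coordinates, Cd79a lies on chromosome 7 from 24897381 to 24902197 and Cd22 on the same chromosome from 30865402 to 30880342. Ms4a1 lies on chromosome 19 from 11249675 to 11266241, and Cd79b on chromosome 11 from 106311341 to 106314762. Pax5 lies on chromosome 4 from 44524757 to 44710487, and Fcer2a on chromosome 8 from 3681737 to 3694175. Cr2 occupies chromosome 1 from 195136811 to 195176716, Blk chromosome 14 from 63372836 to 63417037 and Bank1 chromosome 3 from 136053363 to 136326066. Promoter windows from RefSeq on GRCm38.p6, 250 bases before to 50 after a start, were found for 6 of the 9 genes, in 8 windows because Fcer2a has several starts. Ms4a1, Cd79b and Blk had none in the table. The 4 windows printed here are those of single-start members with a match to a motif searched. Pax5, also with a single start, had no match. Whether these letters bear on how the 9 genes varied across samples was not tested. Each is written 5′ to 3′ along its gene, with matches in capitals.
Cd79a, chr7:24897247-24897546, plus strand: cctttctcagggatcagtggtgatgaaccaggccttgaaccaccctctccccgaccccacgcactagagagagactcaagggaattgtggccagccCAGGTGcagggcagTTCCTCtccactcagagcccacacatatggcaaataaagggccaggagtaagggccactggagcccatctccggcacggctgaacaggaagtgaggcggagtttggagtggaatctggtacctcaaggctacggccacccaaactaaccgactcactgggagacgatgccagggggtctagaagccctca
Cd22, chr7:30878979-30879278, minus strand: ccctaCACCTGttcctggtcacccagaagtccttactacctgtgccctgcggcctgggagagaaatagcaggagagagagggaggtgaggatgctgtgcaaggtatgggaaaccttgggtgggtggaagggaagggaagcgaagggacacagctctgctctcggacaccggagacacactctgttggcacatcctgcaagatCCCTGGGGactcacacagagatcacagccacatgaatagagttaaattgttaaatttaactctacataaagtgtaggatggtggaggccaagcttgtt
Bank1, chr3:136326017-136326316, minus strand: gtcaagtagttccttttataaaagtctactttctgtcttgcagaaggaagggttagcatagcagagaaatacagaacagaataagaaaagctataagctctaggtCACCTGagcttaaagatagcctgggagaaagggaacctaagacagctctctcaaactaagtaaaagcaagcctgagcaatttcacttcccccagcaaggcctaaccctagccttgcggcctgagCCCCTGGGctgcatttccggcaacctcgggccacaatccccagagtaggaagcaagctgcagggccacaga
Cr2, chr1:195176670-195176969, minus strand: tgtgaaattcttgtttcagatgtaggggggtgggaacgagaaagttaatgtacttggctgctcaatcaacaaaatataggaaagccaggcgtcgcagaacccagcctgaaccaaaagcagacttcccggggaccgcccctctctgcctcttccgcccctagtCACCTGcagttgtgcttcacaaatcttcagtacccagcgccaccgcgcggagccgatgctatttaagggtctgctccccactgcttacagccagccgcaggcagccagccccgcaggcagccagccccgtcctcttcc
The motifs, read on both strands, were the E-box CAGGTG, the paired EBF half-sites CCCNNGGG, the Spi1 core GAGGAA and the octamer ATGCAAAT. The E-box was in 5 of 8 member windows and in 20.2% of all 32817 windows of the same length. The capitals are an E-box in Cr2 at position -88, in Bank1 at -145, in Cd79a at -154 and in Cd22 at -245, counted from the start. The paired EBF half-sites were in 2 of 8 windows, Bank1 at -21 and Cd22 at -48, and in 13.7% of all windows. The Cd22 window lies within the gene span given above, so its start is not the outermost annotated one. The Spi1 core was in 1 of 8, Cd79a at -140, and in 28.3% of all. The octamer was in 0 of 8 and in 1.74% of all. These motif letters did not overlap each other in the windows, and a match describes letters, not binding.

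The 9 genes moved together from mouse to mouse, and most of their variation lay within the treatment groups. A gene's highest sample exceeded its lowest by 10.9-fold for Cd22, the least variable of the 9, and by 33.0-fold for Ms4a1, the most variable. Within groups the residual SD of the 9 genes ran from 1.10 for Cd22 to 1.70 for Ms4a1, against a median of 0.20 over all genes, and 8 of the 9 were among the 100 genes with the largest. The 4 groups accounted for 7.44% of the variance of Cd79a and 13.2% of that of Cd22, the extremes of the 9, against a median of 25.8% over all genes. Such a share is on average above 0 even where groups do not differ, and these shares are not adjusted for that. In bulk RNA, fewer B cells in a sample and less of these transcripts per B cell cannot be told apart.

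Cd79a and Cd79b, the signaling chains of the B cell receptor, had the highest values per length among the 9. Cd79a had a lowest, median and highest value of 7.32, 9.38 and 11.77 in untreated samples and 7.67, 9.07 and 12.18 in trastuzumab samples. The same values were 7.58, 9.82 and 11.31 in T-DM1 and 7.64, 11.15 and 12.01 in T-PNU samples. The groups overlapped over most of their range, with untreated A1 the lowest sample of all and trastuzumab E2 the highest. Cd79b ran from 7.60 through a median of 9.17 to 11.32 in untreated, and from 7.93 through 8.81 to 11.57 in trastuzumab samples. It ran from 7.79 through 9.21 to 10.90 in T-DM1 and from 8.23 through 10.57 to 11.59 in T-PNU samples. Here the highest sample was T-PNU H1, followed by trastuzumab E2.

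Ms4a1, which encodes the surface protein CD20, gave 6.45, 8.48 and 11.08 as lowest, median and highest value in untreated samples. In trastuzumab samples these were 6.84, 8.16 and 11.16, in T-DM1 samples 6.72, 8.42 and 10.51, and in T-PNU samples 6.61, 10.14 and 11.49. T-PNU held both a sample near the bottom of the 24 (G1) and the highest one (H1). Pax5, the transcription factor that keeps B cells committed to their lineage, stood at 6.55, 8.70 and 10.59 in untreated and at 6.94, 8.00 and 11.19 in trastuzumab samples. Its T-DM1 values were 6.82, 8.97 and 10.33, and its T-PNU values were 7.28, 10.11 and 11.13. Pax5 therefore had its highest sample, E2, in the group with the lowest median.

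Cd22, a sialic acid-binding receptor that dampens B cell receptor signals, had the narrowest spread. It stood at 7.66, 9.36 and 10.56 in untreated, 7.96, 8.66 and 11.11 in trastuzumab, 7.98, 9.06 and 10.30 in T-DM1 and 8.61, 10.27 and 10.93 in T-PNU samples. The lowest T-PNU sample, G1, was still above the lowest samples of the other groups. Cr2, the complement receptor of mature B cells and follicular dendritic cells, had values of 5.45, 7.57 and 9.43 in untreated and 5.91, 6.94 and 10.00 in trastuzumab samples. In T-DM1 it gave 5.55, 7.29 and 8.98, and in T-PNU 5.50, 8.86 and 10.10. For Cr2 the groups started from similar lowest samples and differed more in their medians.

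Fcer2a, the low-affinity IgE receptor CD23 of mature follicular B cells, stood at 5.49, 7.45 and 9.66 in untreated and 5.76, 6.95 and 10.03 in trastuzumab samples. It stood at 5.59, 7.55 and 9.02 in T-DM1 and at 5.46, 9.13 and 10.01 in T-PNU samples. Its lowest sample of the 24 was T-PNU G1, which was the lowest for no other of the 9 genes. Blk, a Src-family kinase of B cells, gave 5.89, 7.78 and 9.86 in untreated, 6.31, 7.46 and 10.27 in trastuzumab, 6.30, 8.00 and 9.34 in T-DM1 and 6.27, 9.30 and 10.09 in T-PNU samples. Bank1, a scaffold protein that binds Src-family kinases in B cells, gave 7.20, 8.65 and 10.93 in untreated and 7.37, 8.27 and 11.02 in trastuzumab samples. Its values were 7.02, 8.56 and 9.91 in T-DM1 and 7.50, 10.08 and 11.05 in T-PNU samples. The T-PNU median was the highest and the trastuzumab median the lowest of the 4 for each of the 9 genes, and every pair of groups overlapped for each of them.

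**Figure D1:**
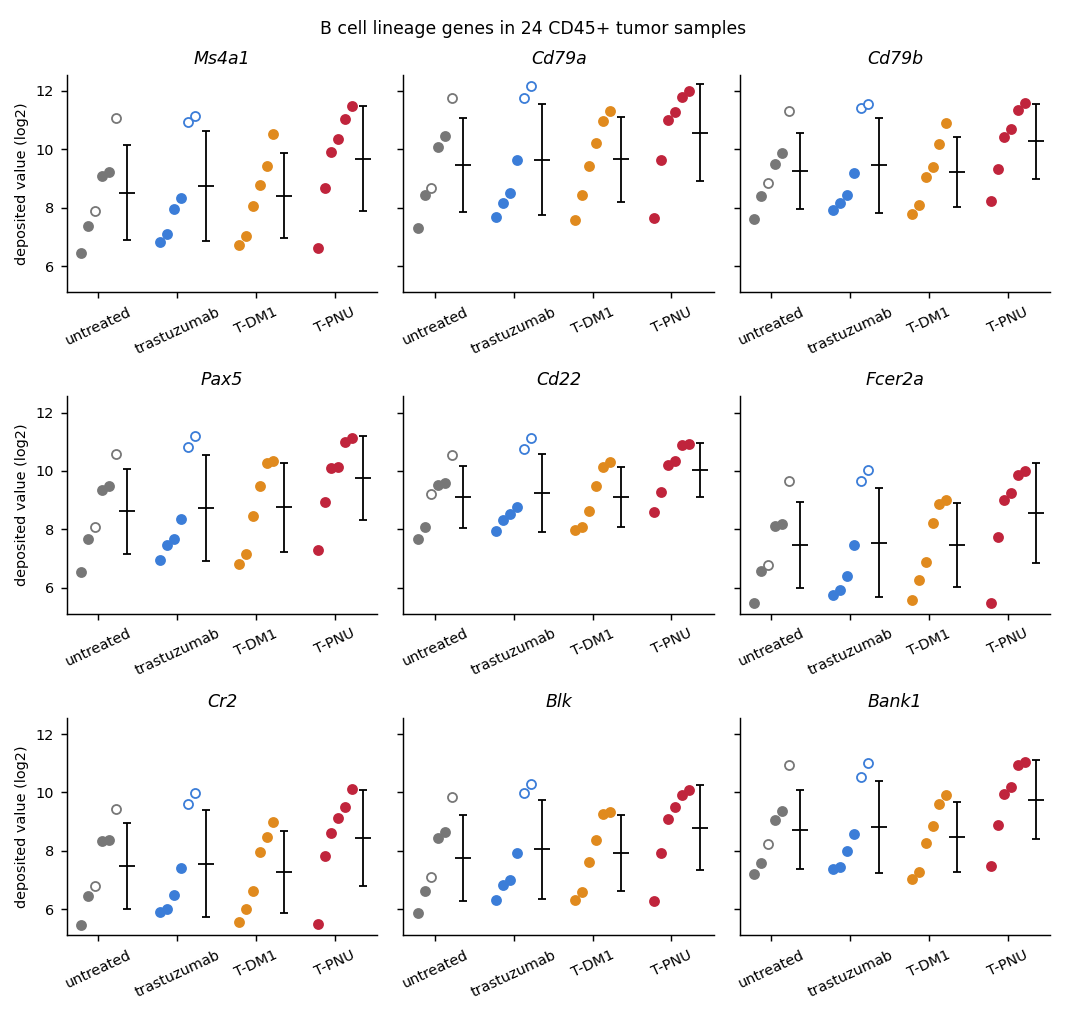
Each panel plots the deposited log2 value of 1 gene in 24 samples, with 6 mice per group, bars at the mean with 1 SD, and open circles for the 4 samples that the study's heatmaps do not label. The groups overlap in every panel, and the open circles include the highest untreated sample and the 2 highest trastuzumab samples of each gene.

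Divided by the merged length of all annotated exons of a gene, the mean log2 value per kilobase was 9.29 for Cd79a and 9.03 for Cd79b. This allows only a rough comparison of genes, because that length can exceed the transcript made and the transformation of the values is not named. Cd22 followed at 7.04 and Blk at 6.70. Ms4a1 (6.21), Fcer2a (6.13), Bank1 (6.04) and Pax5 (5.82) lay close together, and Cr2 was lowest at 4.67. On the same scale Ptprc stood at 10.49, Csf1r at 11.83 and Cd3e, a T cell receptor chain, at 6.94. The SD of each gene over samples was 1.10 to 1.66. Neighbors in this order differed by less than that, other than Cd79b from Cd22 and Pax5 from Cr2. The gap from Pax5 to Cr2 was smaller than the SD of either gene. The genes rose and fell together over samples (r = 0.986 for Pax5 and Cr2), so these SDs do not measure how steady a gap between genes was. Before division by length, Pax5 lay above Cr2 in every sample.

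To describe a sample by all 9 genes, each value was set against its gene's mean over 24 samples and the 9 deviations were averaged, which is called the B cell lineage level here. It ran from -2.16 in untreated A1 to 2.16 in trastuzumab E2, a 20.0-fold range. In 8 samples, 4 of them T-PNU, it was above 1, 8 were under -1 and 8 lay between, and the widest gap between neighbors was 0.48, so the samples formed a gradient. The high end held T-PNU H1 (2.11), C2 (1.95), D2 (1.31) and B2 (1.03), trastuzumab E2 and B3 (1.82), untreated B1 (1.79) and T-DM1 G3 (1.28). The low end held A1, T-DM1 H3 (-1.97), trastuzumab G2 (-1.81) and T-PNU G1 (-1.78). All 4 groups were present among the lowest 4 samples. T-PNU A2 (-0.10) and G1 were the lowest of their group, and the study's heatmaps mark both as low-responding without a stated criterion.

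**Figure D2:**
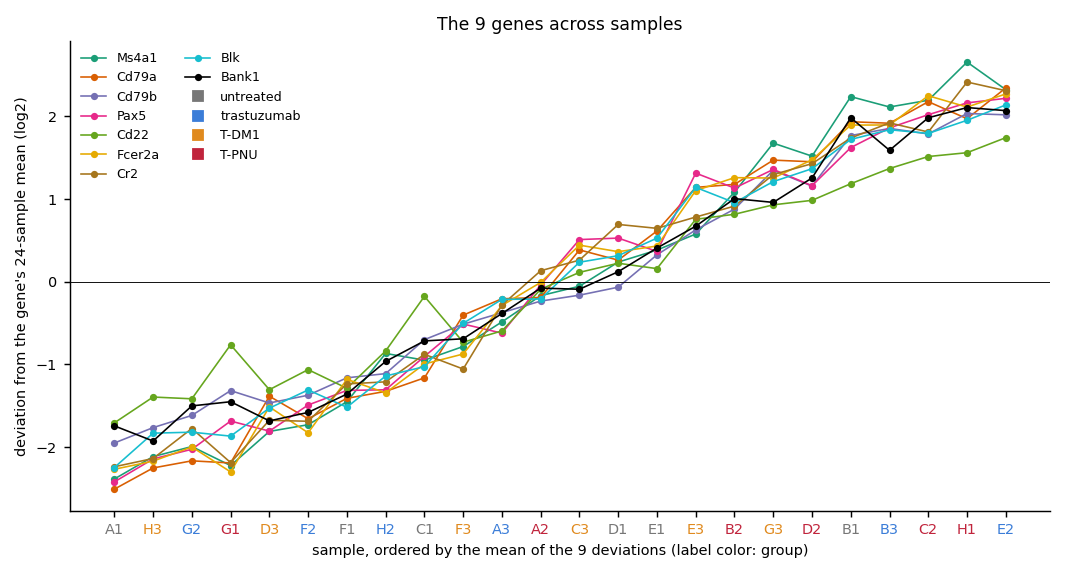
The deviation of each of the 9 genes from its 24-sample mean (log2, vertical axis) is drawn for the samples ordered by their mean deviation, with sample names colored by group. The 9 lines run together from A1 at -2.16 to E2 at 2.16, and the line of Cd22 is flatter than the others.

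Across the 24 samples every one of the 36 pairs of members had a Pearson r between 0.968 and 0.996. Within groups, after each group's mean was removed, r was between 0.971 and 0.996. The 2 genes of a pair are measured in the same library, and these r values are descriptions. The genes were nevertheless not equally steep. Per unit of the mean of the other 8, Ms4a1 changed by 1.15 and Cd22 by 0.72, and the other 7 lay between. In T-PNU G1 the members came apart most, from -2.30 for Fcer2a to -0.76 for Cd22.

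The first comparison asks whether T-PNU changed these genes relative to no treatment. All 9 were higher on average in T-PNU, by 0.94 (Cd22) to 1.16 (Ms4a1) with a median of 1.04, about a doubling. None passed the limma test at an adjusted p under 0.05 over all genes, where 0.188% of genes passed. Ms4a1 averaged 9.68 ± 1.79 (SD, n = 6) in T-PNU and 8.52 ± 1.63 (SD, n = 6) in untreated samples, a difference of 1.16 with an SE of 0.91, a 95% interval of -0.72 to 3.05 and an adjusted p of 0.409. Cd22 was the most precise, with 0.94 ± 0.59 (SE), an interval of -0.28 to 2.16 and an adjusted p of 0.310. Over the 9 genes the adjusted p ran from 0.310 to 0.466, and 0 of 9 were under 0.05 before adjustment. Expressed as folds, the Cd22 interval reached from 0.821 to 4.47, so a rise of several-fold and no change were both within it.

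With the 20 samples, in which untreated are 4, the median difference of the 9 genes was 1.45. Still 0 of 9 passed, where 31.1% of all genes did. Cd22, Cd79b and Bank1 (3 of 9) were under 0.05 before adjustment, and Cd22 had the lowest adjusted p, 0.0591.

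Against T-DM1, which carries a different payload on the same antibody at another dose, T-PNU samples were again higher for all 9 genes, by 0.88 (Blk) to 1.26 (Bank1) with a median of 1.04. Doses differed, 1 against 15 mg/kg, so the 2 conjugates are not matched in dose. None of the 9 passed, with adjusted p from 0.194 to 0.442, where 29.8% of all genes passed. With the 20 samples 0 of 9 passed as well, 1 of 9 was under 0.05 before adjustment, and 39.9% of all genes passed.

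Against trastuzumab, the unloaded antibody at 20 mg/kg, the T-PNU mean was higher by 0.75 (Blk) to 1.02 (Pax5), with a median of 0.92, and 0 of 9 passed (adjusted p from 0.420 to 0.580). Of all genes 0.00588% passed, which is 1 gene. This comparison depended on trastuzumab E2 and B3. With the 20 samples, which lack them, the median was 1.99, and 4 of 9 passed where 28.0% of all genes did. Those 4 were Cd22 at 1.65 ± 0.52 (SE, adjusted p = 0.0288), Bank1 at 1.91 ± 0.67 (adjusted p = 0.0398), Cd79b at 1.84 ± 0.64 (adjusted p = 0.0408) and Pax5 at 2.15 ± 0.79 (adjusted p = 0.0479). The other 5 had adjusted p up to 0.0760. E2 and B3 were the 2 highest trastuzumab samples for each of the 9 genes.

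**Figure D3:**
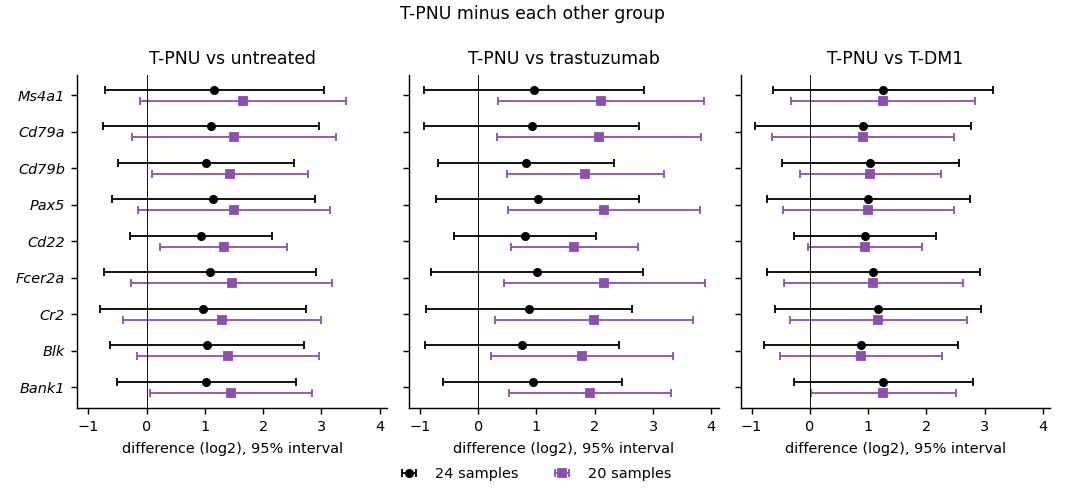
The mean difference of each gene between T-PNU and another group (log2, horizontal axis) is drawn with its 95% interval from limma, as circles for all 24 samples and squares for the 20 that the study's heatmaps label. With 24 samples every interval includes 0, and with the 20 samples those against trastuzumab lie above 0, with Cd22 from 0.56 to 2.74.

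The remaining comparisons were near 0. T-DM1 against untreated had a median difference of -0.005 over the 9 genes, with 3 higher and 6 lower, and 0 of 9 passed where 6.27% of all genes did. Its 20-sample median was 0.39 with all 9 higher, and 0 of 9 passed where 2.01% of all genes did. Trastuzumab against untreated had a median of 0.13 and 0 of 9 passed, against 0.259% of all genes. With the 20 samples that median was -0.46, so the direction of both comparisons turned with the samples left out. T-DM1 against trastuzumab had a median of -0.14 with 0 of 9 passed, against 0.647% of all genes, and 0.85 with the 20 samples. In a joint test for any difference among the 4 groups 0 of 9 passed, with adjusted p from 0.460 to 0.685, where 18.8% of all genes passed. In each of these, 0 of the 9 were under 0.05 before adjustment with 24 samples. The level of the 9 genes was -0.30 ± 1.42 in untreated, -0.14 ± 1.72 in trastuzumab, -0.31 ± 1.32 in T-DM1 and 0.75 ± 1.47 in T-PNU samples (mean ± SD, n = 6 each).

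Of all other genes with a symbol, the 10 closest to the B cell lineage level over the 24 samples by Pearson r were led by Fcmr, the receptor for IgM (r = 0.996), and Cxcr5, the chemokine receptor for B cell follicles (r = 0.994). They also included Srpk3, Tnfrsf13c (the receptor for the survival factor BAFF), H2-Ob (an MHC class II chaperone chain of B cells), Fcrla, Ccr6 and Pou2af1 (an octamer coactivator), and ended with Cecr2 at 0.983. In all 251 other genes had r above 0.9 and 174 were under -0.8. The most opposed was Cers2, a ceramide synthase, at -0.90, but its range over samples was 0.58, against 4.74 for Fcmr.

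The co-receptors and signaling genes of the B cell receptor divided. Among the 14 listed genes, Prkcb, a protein kinase C, followed the level (r = 0.804) less closely than the members followed each other. Cd81, a tetraspanin found on many cell types, went the other way (r = -0.584), as did Fcgr2b, the inhibitory Fc receptor also made by macrophages (r = -0.390). None of the 14 passed between T-PNU and untreated with 24 samples, where 0.188% of all genes did. Using the 20 samples, 6 of 14 were higher and 1, Cd81, was lower, where 31.1% of all genes passed. Between T-PNU and T-DM1, 9 of 14 passed and all 9 were higher in T-PNU, where 29.8% of all genes passed. The 9 included the kinases Btk at 0.61 ± 0.13 (SE, adjusted p = 0.00335), Syk at 0.33 ± 0.11 (adjusted p = 0.0253) and Lyn at 0.42 ± 0.12 (adjusted p = 0.0114), and the adaptor Blnk at 0.87 ± 0.20 (adjusted p = 0.00388). These are also genes of myeloid cells, and in the same comparison 4 of 8 macrophage genes were higher, with Adgre1 at 0.86 ± 0.22 (adjusted p = 0.00645). The macrophage level ran from -0.53 to 0.03 in T-DM1 and from -0.03 to 0.44 in T-PNU samples. Of 5 pan-leukocyte genes 3 were higher as well, with Ptprc at 0.76 ± 0.19 (adjusted p = 0.00569). Of 9 non-immune genes 5 were lower and 3 higher in T-PNU. The non-immune level ran from 0.16 to 0.42 in T-DM1 and from -0.86 to 0.06 in T-PNU samples. The part of these other cell types in the result was not tested. In this comparison 11 of 14 passed with the 20 samples, all 11 higher, and 6 of 8 macrophage genes were higher. Of all genes 39.9% passed there.

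Among 11 B cell transcription factors the median r to the level was 0.943. Pou2af1 (r = 0.988) and Bach2 (r = 0.959) were closest, and Tcf3 (r = 0.238) and Id3 (r = 0.247), a pair of an E protein and its inhibitor that other cells also express, were least close. Tcf3 and Id3 were both higher in T-DM1 than in untreated samples, by 0.63 ± 0.15 (SE, adjusted p = 0.0165) and 0.63 ± 0.14 (adjusted p = 0.0133), where none of the 9 lineage genes passed. Only Id3 of the pair passed with the 20 samples. Both were lower in T-PNU than in T-DM1, and Pou2f2, an octamer-binding factor, was higher by 0.51 ± 0.15 (adjusted p = 0.0170). In T-PNU against untreated, 0 of 11 passed with 24 samples, where 0.188% of all genes did. The 20 samples gave 4 of 11 as higher (Pou2f2, Ikzf3, Foxo1 and Bcl6), where 31.1% of all genes passed.

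The 14 homing and survival receptors had a median r of 0.978, and their mean level had an r of 0.994 with that of the 9 genes (Spearman's rho 0.990, and r = 0.993 without A1 and E2, the farthest samples). Cd180 (r = -0.208) and Cd40 (r = -0.023) did not share the pattern. None of the 14 passed between T-PNU and untreated with 24 samples, where 0.188% of all genes did. In the 20 samples 5 of 14 were higher (Ccr7, Tnfrsf13b, Cd180, Ly6d and Cd37), close to the 31.1% of all genes that passed. Between T-PNU and T-DM1, 2 of 14 (Cd180 and Tnfrsf13b) were higher, where 29.8% of all genes passed. Of the ligands and cytokines that act on B cells, 7 of 8 had values and their median r was 0.145. Cd40lg, the T cell ligand of Cd40, was closest (r = 0.876). Tnfsf13b, the gene of BAFF, was lower in T-DM1 than in untreated samples by -0.64 ± 0.19 (SE, adjusted p = 0.0462). With the 20 samples 0 of the 7 ligands passed in that comparison, where 2.01% of all genes did. Cxcl13, the chemokine for Cxcr5, was lower in T-DM1 than in trastuzumab samples by -1.66 ± 0.31 (adjusted p = 0.0120), passed with the 20 samples too (where 0.812% of all genes did), and did not follow the lineage level (r = -0.180).

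Immunoglobulin constant genes, which B cells and plasma cells transcribe, followed with a level r of 0.941 and 11 of 11 had values. Ighd, the IgD segment of mature naive B cells, was nearest (r = 0.996) and ran from 7.27 in T-DM1 H3 to 12.12 in E2, while Igha, the IgA segment, was far from it (r = 0.150). Their level was highest in untreated B1 (2.21), and H1, the highest T-PNU sample for the 9 genes, had 0.83. Closely similar constant segments such as Ighg1, Ighg2b and Ighg2c can share reads, and their separate values are uncertain. None of the 11 passed in any of the 6 comparisons with 24 samples. Of all genes, from 0.00588% (T-PNU against trastuzumab) to 29.8% (T-PNU against T-DM1) did. Among germinal center and plasma cell genes, Pou2af1 and Mzb1, an endoplasmic reticulum protein of antibody-secreting cells (r = 0.963), followed the level. Xbp1 (r = -0.621) and Sdc1 (r = -0.481), which other cells also express, did not. Sdc1 was higher in T-DM1 than in untreated by 0.72 ± 0.19 (SE, adjusted p = 0.0277), a call lost with the 20 samples. It was lower in T-PNU than in T-DM1 (adjusted p = 0.00174), with the 20 samples too. Of 8 precursor genes only Dntt, Vpreb3 and Cd93 had values, and Rag1, Rag2, Igll1, Vpreb1 and Vpreb2 are not among the genes analysed here.

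Lists of other cell types show what else moved with the 9 genes. The 12 T cell genes had a median r of 0.891 with the B cell lineage level, from 0.650 for Cd8a to 0.930 for Cd2. The T cell level ran from -1.50 in A1 to 1.86 in C2, and its own r with the B cell lineage level was 0.891 (Spearman's rho 0.886, r = 0.867 without A1 and E2, and 0.882 within groups). The 10 naive lymphocyte genes had a level r of 0.924, with Satb1 (r = 0.949) and Ccr7 (r = 0.945) closest. Il7r was less close (r = 0.624), and Igfbp4 went the other way (r = -0.375). In the 20 samples all 12 of 12 T cell genes passed between T-PNU and untreated with a median difference of 1.60, where 31.1% of all genes passed, while the 9 B cell lineage genes, with a median of 1.45, did not. B1 and C1, the untreated samples left out, had T cell levels of 1.51 and 0.26, the highest of that group. Their B cell lineage levels were 1.79 and -0.83, so leaving them out acted differently on the T cell and B cell genes. The difference between these lists was not tested. With all 24 samples 0 of 12 T cell genes passed between T-PNU and untreated, where 0.188% of all genes did.

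Glycam1, a mucin made by high endothelial venules of lymph nodes, also followed the level (r = 0.904, and 0.906 within groups). It ran from 4.19 in trastuzumab H2 to 9.43 in T-PNU H1. Of the 9 lymph node stroma genes only 5 had values, and the other 4 of those did not follow, from -0.502 for Clu to -0.180 for Cxcl13. The adipocyte level, from 3 of 6 genes, was highest in H1 as well (0.87). Macrophage genes (level r = -0.133), neutrophil genes (-0.012), plasmacytoid dendritic cell genes (0.353) and non-immune genes (-0.322) were, as list averages, far less tied to the level. The plasmacytoid and non-immune lists held genes of both signs. Siglech had an r of 0.541 and Runx2 of -0.607. Epcam (0.768) and Pecam1 (0.697) followed the level, while Pdgfrb (-0.535) and Col1a2 (-0.512) went the other way. The 5 pan-leukocyte genes had a level r of 0.779. Whether lymphoid tissue, T cells or any of these cell types had a part in the differences among mice was not tested.

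**Figure D4:**
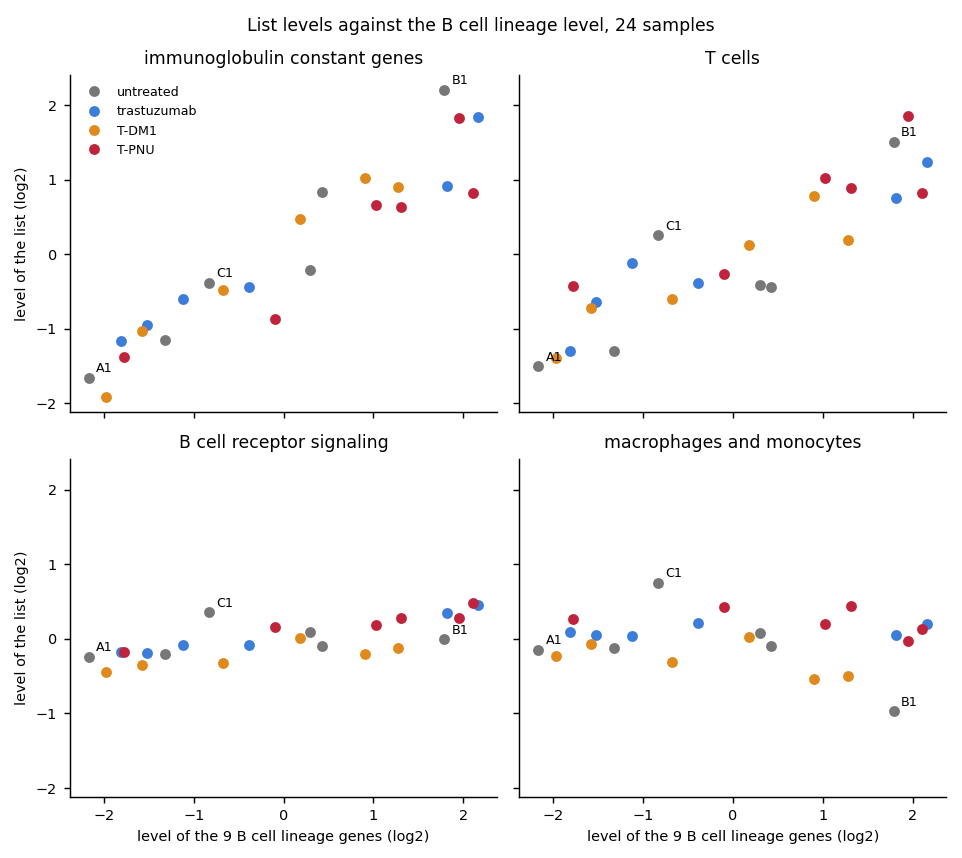
Each point is 1 of 24 samples, colored by group, with the B cell lineage level on the horizontal axis and the mean deviation of another gene list on the vertical axis (both log2). Immunoglobulin (r = 0.941) and T cell lists (level r = 0.891) are higher where it is higher, B cell receptor signaling genes span a narrower range (r = 0.734), and macrophage genes show no such order (r = -0.133).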

How the data were processed

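Per the labels and the study's methods, the authors aligned single-end reads with STAR 2.4.2a to mm10, counted them per gene with strand by featureCounts (Subread 1.5.0) and removed genes averaging under 5 counts. The deposited values are log2 values normalized for library size. The transformation is not named, and shrinkage toward gene means, if used, would make differences smaller. The columns held no counts, so no count model was run. Symbols for 2373 of 2417 genes without one came from their identifiers. Members and lists were chosen with earlier results of these data known. A linear model with a variance trend was fitted by limma (version 3.58.1, R 4.3.3) to 24 samples in 4 groups with no covariate, with two-sided tests and Benjamini-Hochberg adjustment over 16996 genes. It was tested on simulated data. Alternatives were the 20 heatmap samples, quantile normalization, genes above the median, 2-group fits, sample weights, robust variance, exact permutation and leaving out each sample. Named genes were the members, the list genes closest to and farthest from the level, up to 4 called genes per list, and the 10 most like it. One gene that this rule covers is not reported here. Figures were drawn with matplotlib 3.10.9.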

Additional observations from a re-analysis of the deposited data

How the results depend on the processing

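None of the 9 genes passed in any comparison under quantile normalization, 2-group fits, sample weights, robust variance or with any 1 sample left out. The same held for a filter to genes above the median, which kept 6 of the 9. For comparisons with untreated it also held under the exact permutation test, whose smallest possible p is 0.00216. With adjustment over 16996 genes, a gene can pass that test only if many genes come near that p, so its 0 adds little. In the main fit, from 0.00588% to 29.8% of all genes passed across the 6 comparisons. That share is not given for these alternatives, so each 0 describes the 9 genes only. The 1 count that moved was T-PNU against trastuzumab, which went to 4 of 9 with the 20 heatmap samples. The members' differences for T-PNU against each other group stayed above 0 in every alternative. With 1 sample left out, the median difference against untreated lay between 0.69 (A1 left out) and 1.55 (G1 left out), that against T-DM1 was 0.72 or more, and that against trastuzumab between 0.55 (G2 left out) and 1.46 (G1 left out). The median of trastuzumab against untreated was -0.20 with sample weights, -0.46 with the 20 samples and from -0.31 to 0.53 with 1 sample left out. T-DM1 against untreated and against trastuzumab also changed sign with 1 sample left out. No paired analysis was possible because the labels give the groups no shared replicate numbers. Of the 10 genes most like the level, 10 stayed with the 20 samples and 9 without A1 and E2. The number of mice limits precision, and depth is unknown.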
